A study of Mus musculus with 12 samples.

Results

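The genes described here are 47 imprinted mouse genes, taken from a fixed list of names and grouped by imprinted cluster and by the parental allele that general knowledge gives as the expressed one. They were picked out of a table of 23284 genes by symbol, all 47 were present, and 44 of them passed the count filter among the 14412 genes tested. RNA came from single whole embryos of a C57BL/6 x 129Sv background at 9.0 dpc (days post coitum), at about 9 to 10 somites. Libraries were made from poly-A RNA and read as pairs of 50 bases; the labels give no litter, date or batch, so p-values rest on the spread between embryos, some of which may share a litter. The 8 embryos of the first group carry the genotype label Tgif1;Tgif2 null and are described as conditional double mutants that lack both alleles of each gene, and the 4 embryos of the second are labelled wild type. The driver of the deletion is not stated in these sources. Tgif1 and Tgif2 encode homeodomain repressors that restrain TGF-beta signalling, and the series asks how gene expression changes when both are missing.

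Tgif1 stood at 5.5 to 6.87 CPM in the first group, against 58.5 to 64.2 CPM in wild type, where CPM is the count scaled to a common library total after TMM scaling. Tgif2 stood at 84.4 to 116 CPM in the first group, against 85.7 to 88.5 CPM in wild type (log2 fold change 0.16, SE 0.08, edgeR adjusted p = 0.0958). The count over the whole gene did not show the loss of Tgif2, which rests on the labels; the first group is therefore named mutant-labelled here. Libraries held 16802367 to 21346245 counts in mutant-labelled embryos and 17296017 to 20080786 in wild-type embryos. Some embryos stood apart. Mutant-labelled embryo 6 held 610 counts of the decidual prolactin gene Prl8a2 and 123 of the trophoblast giant cell gene Prl3d1, against at most 8 and 15 in any other mutant-labelled embryo and at most 6 and 2 in any wild-type embryo. Mutant-labelled embryo 2 was low in posterior Hox genes, at 11.2 summed CPM, against 113 to 153 in the rest of that group and 167 to 210 in wild type.

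Imprinted genes are transcribed mainly from the allele inherited from one parent, because DNA methylation set in one parent's germ line marks a control region, directly or through a noncoding RNA that silences its neighbours in cis. They lie in clusters that share a control region, so that protein-coding genes and long noncoding RNAs of one cluster are often expressed from opposite alleles. Many act on embryonic and placental growth: Igf2 promotes it, while Igf2r, Cdkn1c and Grb10 restrain it. Total counts do not tell the alleles apart, so nothing below measures imprinting itself. In whole embryos, fewer cells of a type and less RNA per cell cannot be told apart.

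Several members are hosts of microRNAs, and the sequences below show products of the H19, Igf2, Mirg and Mest transcripts, whose levels are described further on. On GRCm38.p6, 22 microRNA genes with 42 mature products lie on the same strand inside the GENCODE M21 bounds of 7 of the 47 members. Mirg holds 14 of these genes, Rian 3, and Meg3, H19, Igf2, Mest and Usp29 1 each. An annotated RefSeq start of Mirg lies after chr12:109734980. The listed products of the Mir382, Mir134, Mir668 and Mir485 genes lie before that start. The 42 products have 41 distinct seeds. Capitals mark the seed, bases 2 to 8, and the last pair are the only products that share one.
miR-675-5p in H19, chr7:142577112-142577133, minus strand: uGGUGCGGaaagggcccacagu
miR-675-3p in H19, chr7:142577078-142577099, minus strand: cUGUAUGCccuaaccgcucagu
miR-483-5p in Igf2, chr7:142654968-142654989, minus strand: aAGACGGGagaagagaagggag
miR-483-3p in Igf2, chr7:142654932-142654952, minus strand: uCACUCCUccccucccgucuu
miR-335-5p in Mest, chr6:30741314-30741336, plus strand: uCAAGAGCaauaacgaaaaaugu
miR-453 in Mirg, chr12:109735669-109735692, plus strand: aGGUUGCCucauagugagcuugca
miR-496a-5p in Mirg, chr12:109739132-109739152, plus strand: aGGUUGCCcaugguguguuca
Libraries of polyadenylated RNA do not measure mature microRNAs. The 21 microRNA rows of the table held 0 to 16 counts per embryo, and the row of the miR-675 gene held 0 in every embryo, so only the hosts are described below.

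The listed imprinted genes, taken as a sum, held a larger share of the counts in mutant-labelled embryos. The 47 genes together held 2.15 ± 0.158% of all counts in mutant-labelled embryos (SD, n = 8; range 1.98 to 2.42%) and 1.61 ± 0.128% in wild-type embryos (SD, n = 4; range 1.48 to 1.78%). The groups did not overlap, and the two-sided exact permutation p of 0.00202 is the lowest that splits of these embryos can give. That p is for the sum of a list chosen with earlier results of these data known. No share of other genes was tested beside it, and 51.5% of all genes tested were called. H19 and Igf2 made up much of the sum. Without them the share averaged 1.22% in mutant-labelled embryos and 1% in wild type, a difference that was not tested.

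Of the 44 members tested, 21 were higher in mutant-labelled embryos at an adjusted p under 0.05 (edgeR quasi-likelihood test, Benjamini-Hochberg over all 14412 genes), 8 were lower and 15 did not pass. Over all genes tested, 26.6% were higher and 24.9% were lower, so that 51.5% were called in either direction. Among the members 47.7% were higher and 18.2% were lower. At least 1.5-fold, 8 members were higher and 2 lower, beside 11.9% of all genes higher and 4.65% lower. All mutant-labelled embryos lay above all wild-type embryos in 17 members and below them in 7, beside 17.5% and 17.1% of all genes (34.7% in either direction). The median log2 fold change was 0.27 over the members and 0.01 over all genes tested, and the median size of the change was 0.36 and 0.25.

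Rises and falls were found among genes of either expressed allele. Of 22 tested members known for paternal expression, 9 were higher, 6 lower and 7 not called, with a median log2 fold change of 0.11. Of 22 known for maternal expression, 12 were higher, 2 lower and 8 not called, with a median of 0.30. A set of 13 tested members is known to be imprinted mainly in some tissues, such as placenta or neurons, and of these 7 were higher, 2 lower and 4 not called. The other 31 counted 14 higher, 6 lower and 11 not called. Over all genes tested, 26.6% were higher and 24.9% lower. Beside these stand 40.9% and 27.3% for paternal expression, and 54.5% and 9.09% for maternal expression. The members imprinted mainly in some tissues had 53.8% higher and 15.4% lower, and the other 31 had 45.2% and 19.4%. No difference between these subsets, or from all genes, was tested.

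**Figure D1:**
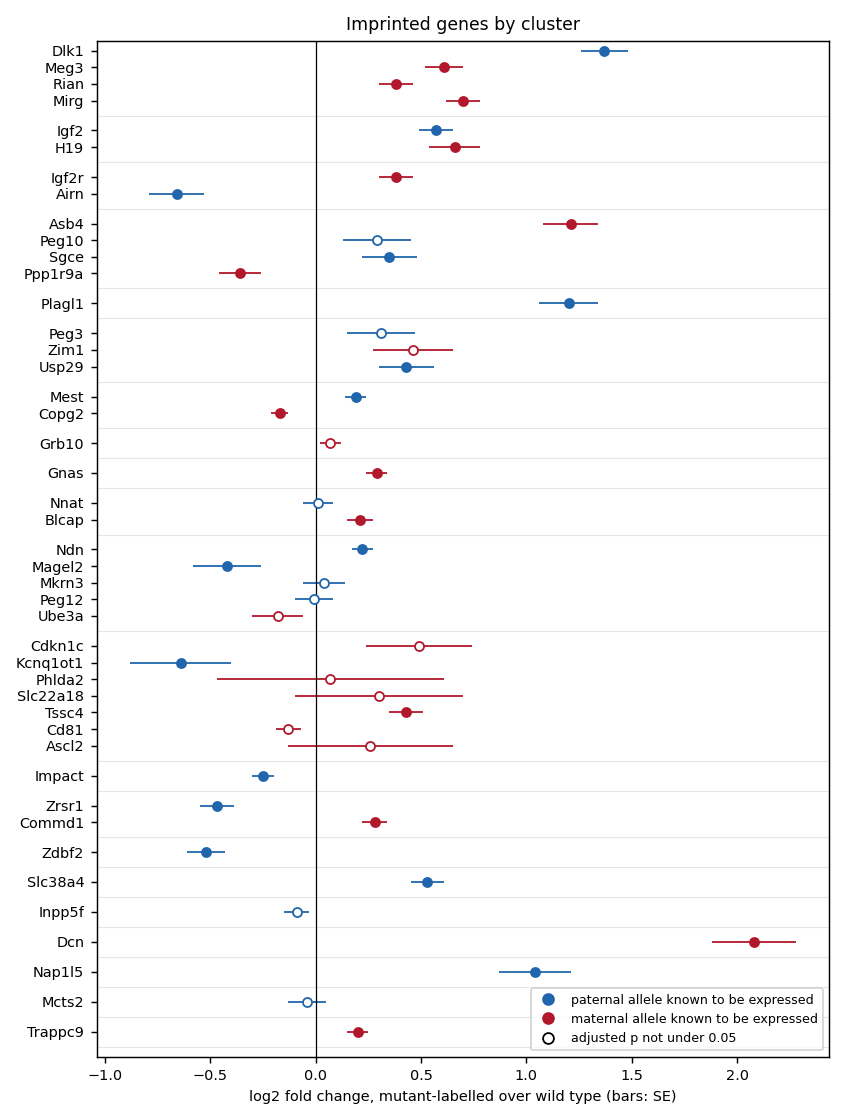
Log2 fold change of the 44 tested imprinted genes, mutant-labelled over wild type, with bars of 1 SE, ordered by cluster; blue marks genes known for paternal and red for maternal expression, and open circles did not pass an adjusted p of 0.05. Dcn, at 2.08, and Dlk1, at 1.37, lie farthest to the right, and Airn, at -0.66, and Kcnq1ot1, at -0.64, farthest to the left.

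Both genes of the Igf2-H19 cluster were higher. Igf2, the paternally expressed fetal growth factor, stood at 2920 CPM in the lowest, 3170 in the median and 3960 in the highest mutant-labelled embryo, against 1830, 2230, 2530 and 2250 CPM in the wild-type embryos. H19, the maternally expressed noncoding RNA that hosts miR-675, stood at 4820, 5920 and 7930 CPM in the lowest, median and highest mutant-labelled embryos, against 3320, 3540, 4410 and 4050 CPM in wild type. The groups did not overlap for either gene; mutant-labelled embryo 1 was highest for Igf2 and embryo 6 for H19. The log2 fold change was 0.57 (SE 0.08, adjusted p = 8.27e-05) for Igf2 and 0.66 (SE 0.12, adjusted p = 0.000806) for H19. Without embryo 6, H19 was at 0.59 (adjusted p = 0.000397). Per kilobase of the longest annotated transcript, H19 averaged 2640 RPKM in mutant-labelled embryos and 1670 RPKM in wild type, while Igf2 averaged 692 RPKM in mutant-labelled embryos and 468 RPKM in wild type.

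Igf2 and H19 use the same enhancers and are expressed from opposite alleles, so their ratio within each embryo was also compared. It was 0.426 to 0.621 in mutant-labelled embryos and 0.552 to 0.628 in wild type, a log2 difference of -0.08 with overlapping groups (two-sided exact permutation test, p = 0.485 adjusted over the 14 ratios tested). Embryo 6 gave the lowest value. Over the 8 mutant-labelled embryos the pair varied together by rank (Spearman's rho 0.90, exact permutation p = 0.00456, adjusted p = 0.0411; Pearson's r 0.69, exact permutation p = 0.0638, adjusted p = 0.133). Without the 2 embryos farthest from the median of Igf2, r was 0.76.

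Dlk1, Meg3, Rian and Mirg, the members of the Dlk1-Meg3 cluster on chromosome 12, were all higher, without overlap between groups. Dlk1, the paternally expressed EGF-repeat transmembrane protein that limits differentiation, stood at 528 CPM in the lowest, 639 in the median and 686 in the highest mutant-labelled embryo, against 181, 232, 289 and 264 CPM in wild type. Even the lowest mutant-labelled embryo thus lay well above the highest wild-type embryo. The log2 fold change was 1.37 (SE 0.11, adjusted p = 3.05e-07). The 3 maternally expressed noncoding RNAs moved less. Meg3 stood at 196, 253 and 267 CPM in the lowest, median and highest mutant-labelled embryos, against 157, 144, 175 and 146 CPM in wild type (log2 fold change 0.61, SE 0.09, adjusted p = 9.33e-05). Rian, which also carries small nucleolar RNAs, stood at 272, 300 and 370 CPM in these mutant-labelled positions, against 238, 217, 264 and 247 CPM in wild type (log2 fold change 0.38, SE 0.08, adjusted p = 0.00176). Mirg, host to 14 microRNA genes by its GENCODE bounds, stood at 22.9, 26.6 and 29.2 CPM, against 14.5, 16.1, 17.2 and 17.3 CPM in wild type (log2 fold change 0.70, SE 0.08, adjusted p = 6.03e-06).

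The balance inside this cluster differed. Dlk1 counts were 2.07 to 3.11 times those of Meg3 in mutant-labelled embryos and 1.15 to 1.8 times in wild type. The groups did not overlap, with a log2 difference of 0.78 (exact permutation p = 0.00202, adjusted p = 0.00566). Rian fell relative to Meg3, at 1.12 to 1.5 times its counts in mutant-labelled embryos and 1.51 to 1.69 in wild type (log2 difference -0.23, exact permutation, adjusted p = 0.0283). That call ended on leaving out mutant-labelled embryo 5 (adjusted p = 0.0566) or wild-type embryo 4 (adjusted p = 0.0727). The ratio of Mirg to Meg3 counts was 0.0993 to 0.124 in mutant-labelled embryos and 0.0924 to 0.118 in wild-type embryos, with an adjusted exact permutation p of 0.324.

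**Figure D2:**
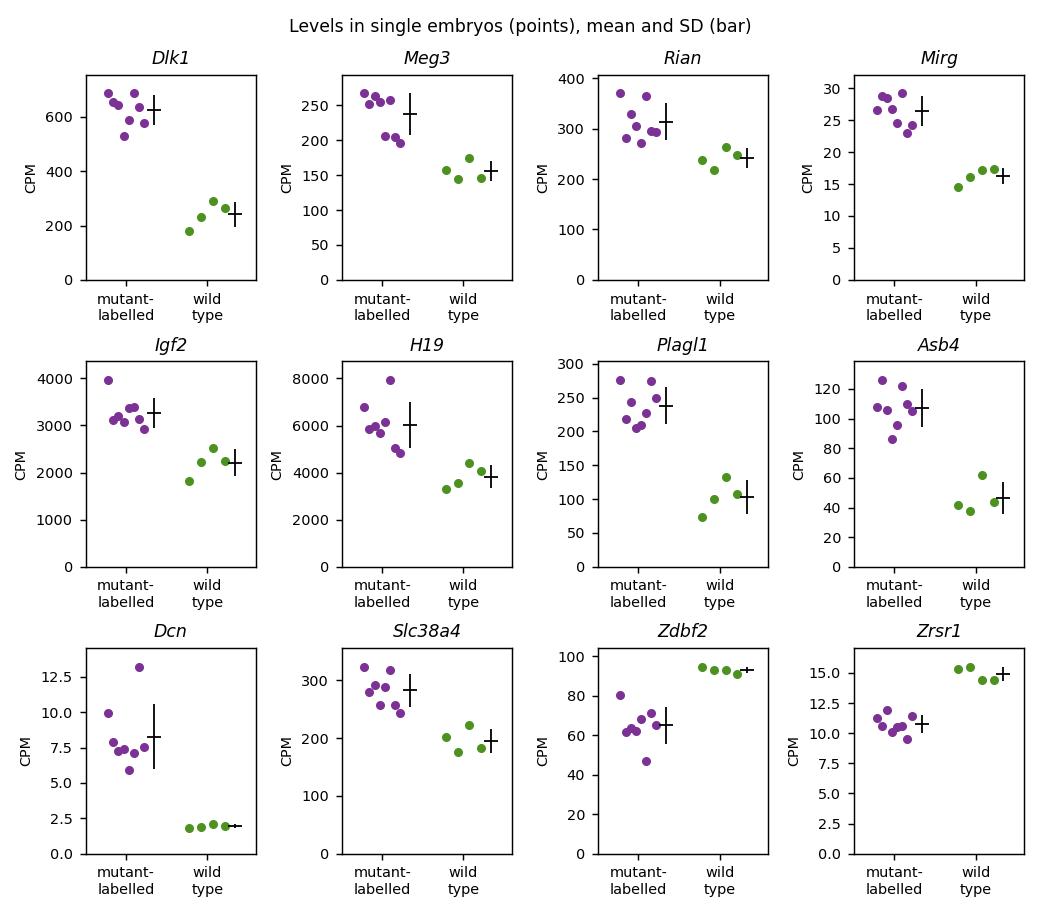
CPM of 12 members in each embryo (points), mutant-labelled on the left and wild type on the right of each panel, with the mean and SD as a bar; each axis starts at 0. In all 12 panels the groups do not overlap: 10 genes lie higher in mutant-labelled embryos, and Zdbf2 and Zrsr1 lie lower.

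The promoters of Dlk1 and Meg3, whose ratio differed between the groups, and of Plagl1 are printed because TGIF proteins are known to bind the core TGTCA, or TGACA on the other strand. Each stretch is the 250 bases before an annotated start in RefSeq (GRCm38.p6), read 5′ to 3′ on the gene's strand, with matches to either form in capitals.
Dlk1 promoter, chr12:109452573-109452822, plus strand: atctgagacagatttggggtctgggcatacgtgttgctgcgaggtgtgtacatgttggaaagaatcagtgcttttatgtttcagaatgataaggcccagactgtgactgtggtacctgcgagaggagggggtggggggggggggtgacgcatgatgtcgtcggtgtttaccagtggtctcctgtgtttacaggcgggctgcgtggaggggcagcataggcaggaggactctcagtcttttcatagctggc
Meg3 promoter, chr12:109540746-109540995, plus strand: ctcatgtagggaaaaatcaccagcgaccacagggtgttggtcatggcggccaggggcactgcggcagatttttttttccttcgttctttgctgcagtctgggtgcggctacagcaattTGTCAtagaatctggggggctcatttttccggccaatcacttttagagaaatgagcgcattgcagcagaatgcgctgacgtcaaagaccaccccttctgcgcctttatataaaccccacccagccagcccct
Plagl1 promoter, chr10:13090582-13090831, plus strand: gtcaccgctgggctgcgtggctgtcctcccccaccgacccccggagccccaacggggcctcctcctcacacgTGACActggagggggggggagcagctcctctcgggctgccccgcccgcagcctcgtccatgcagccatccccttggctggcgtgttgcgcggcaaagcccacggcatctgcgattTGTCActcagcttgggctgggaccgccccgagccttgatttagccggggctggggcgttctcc
The Dlk1 stretch held 0 matches, the Meg3 stretch 1 and the Plagl1 stretch 2; a second annotated Meg3 window, chr12:109545148-109545397, held 0 and is not printed. Member windows of this kind numbered 58, from 39 members, and no window of Impact was among them. At least 1 match stood in 20 of these windows (34.5%), beside 13124 of 32851 (40.0%) of all promoter windows of this length. A match is a run of letters and not a bound site. The letters TGCCGC or GCGGCA, the core bound by the imprint-keeping protein ZFP57 when methylated, stood in 9 windows (15.5%), beside 2850 (8.7%) of all windows. Windows can overlap, so some matches count more than once. The Mest windows from chr6:30737800 and chr6:30737803 hold the same 2 matches to TGCCGC. The Peg3 and Usp29 windows hold the same 2 matches to TGTCA. No difference in these shares was tested.

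Plagl1, a paternally expressed zinc-finger regulator that in mouse binds the enhancers of H19 and Igf2, had one of the larger rises. It stood at 205, 236 and 276 CPM in the lowest, median and highest mutant-labelled embryos, against 73.1, 99.8, 133 and 108 CPM in wild type. The groups lay far apart, with a log2 fold change of 1.2 (SE 0.14, edgeR adjusted p = 1.07e-05). Wild-type embryo 1 was lowest for Plagl1, Dlk1, Igf2 and H19 alike. Among wild-type embryos it was lowest in 14 of the 44 tested members, Gnas and Peg3 included, and wild-type embryo 2 was also lowest in 14. A link between Plagl1 and these genes was not tested.

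In the Igf2r-Airn cluster the protein-coding gene and its antisense RNA moved in opposite directions. Igf2r, the maternally expressed receptor that takes up and clears IGF2, stood at 636, 770 and 902 CPM in the lowest, median and highest mutant-labelled embryos, against 535, 575, 655 and 577 CPM in wild type (log2 fold change 0.38, SE 0.08, adjusted p = 0.00167). Embryo 8 of the mutant-labelled group lay below wild-type embryo 3, so the groups overlapped. Airn, the paternally expressed noncoding RNA that silences the paternal Igf2r, stood at 3.28, 4.3 and 5.35 CPM in these mutant-labelled positions, against 7.36, 5.93, 7.66 and 6.48 CPM in wild type. Every mutant-labelled embryo was below every wild-type embryo for Airn (log2 fold change -0.66, SE 0.13, adjusted p = 0.000806). Igf2r counts were 126 to 232 times those of Airn in mutant-labelled embryos and 72.4 to 96.6 times in wild type, a log2 difference of 1.05 (exact permutation p = 0.00202, adjusted p = 0.00566). The 2 genes overlap on opposite strands. No source used here gives the strand setting of the counting, so reads in the overlap are uncertain. The same holds for the pairs Mest and Copg2, Nnat and Blcap, Zrsr1 and Commd1, and Nap1l5 and Herc3 described below. It also holds for Gnas, Tssc4, Cd81 and Usp29, which overlap Nespas, Trpm5, R74862 and Zim3 on the opposite strand. Mcts2 and Trappc9 overlap H13 and Peg13 on the same strand, so their reads are uncertain too.

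Of 14 other genes of the IGF pathway, all tested, 6 were higher, 2 lower and 6 not called, a share near the 51.5% called over all genes, with a median log2 fold change of 0.13. Insr, the insulin receptor, averaged 60.3 ± 6.39 CPM in mutant-labelled embryos and 30.1 ± 0.564 CPM in wild type (log2 fold change 1, SE 0.08, adjusted p = 1.26e-07). The IGF-binding proteins Igfbp3 (0.66, SE 0.07, adjusted p = 1.34e-06) and Igfbp2 (0.62, SE 0.10, adjusted p = 9.76e-05) were higher on the log2 scale. Igf2bp2, which encodes an RNA-binding protein that binds Igf2 mRNA, was lower by a log2 fold change of -0.27 (SE 0.04, edgeR adjusted p = 9.47e-05). Igf1r, the receptor that signals for IGF1 and IGF2, averaged 146 ± 11.8 CPM in mutant-labelled embryos and 162 ± 7.49 CPM in wild type, and was not called (edgeR adjusted p = 0.0523). Grb10, the maternally expressed adaptor that damps these receptors, stood at 1310, 1550 and 1600 CPM in the lowest, median and highest mutant-labelled embryos, against 1450, 1460, 1480 and 1440 CPM in wild type. Its log2 fold change was 0.07 (adjusted p = 0.243), and embryo 6 alone lay below wild type. Without that embryo, Grb10 was called at 0.10 (adjusted p = 0.0175).

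The Peg10-Sgce cluster on chromosome 6 split. Asb4, a maternally expressed ubiquitin-ligase subunit of the developing vasculature, stood at 86.1, 107 and 126 CPM in the lowest, median and highest mutant-labelled embryos, against 42, 37.9, 61.7 and 43.9 CPM in wild type. The groups did not overlap, and the log2 fold change was 1.21 (SE 0.13, adjusted p = 4.41e-06). Its neighbour Peg10, a paternally expressed retrotransposon-derived gene needed for the placenta, stood at 870, 1160 and 1540 CPM, against 762, 911, 1220 and 1030 CPM in wild type. The groups overlapped widely for Peg10, which was not called (log2 fold change 0.29, SE 0.16, adjusted p = 0.162). Peg10 counts were 6.92 to 14.4 times those of Asb4 in mutant-labelled embryos and 18.1 to 24 times in wild type (log2 difference -0.94, exact permutation p = 0.00202, adjusted p = 0.00566). Sgce, which encodes epsilon-sarcoglycan, was called at a log2 fold change of 0.35 (adjusted p = 0.04), with embryo 6 at 74.5 CPM, the other mutant-labelled embryos at 42.3 to 54.8 and wild type at 35.9 to 46.8 CPM. It lost its call without any one of 6 embryos (adjusted p up to 0.127), and not without embryo 6 (0.26, adjusted p = 0.021). Ppp1r9a, which encodes an actin-binding neuronal protein, was lower without overlap, at 31.7 to 52.7 CPM in mutant-labelled embryos, against 55.1 to 60.9 CPM in wild type (log2 fold change -0.36, SE 0.10, adjusted p = 0.0082). The neuron markers listed for comparison summed to 95.1 to 129 CPM in mutant-labelled embryos, against 112 to 147 CPM in wild type. Of 12 neuron markers tested, 3 were lower and 1 higher, beside 24.9% and 26.6% of all genes tested. The part of these markers in the result was not tested.

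Dcn and Nap1l5, both low in abundance, were higher, and Dcn had the largest fold change of the 44 members tested. Dcn, which encodes the matrix proteoglycan decorin and is known for maternal expression in placenta, stood at 5.95, 7.48 and 13.2 CPM in the lowest, median and highest mutant-labelled embryos, against 1.85, 1.87, 2.13 and 1.94 CPM in wild type. Wild type was tight, mutant-labelled embryos 7 and 1 were highest, and the groups were far apart (log2 fold change 2.08, SE 0.20, adjusted p = 9.68e-07). Embryo 6, which held the most Prl8a2 and Prl3d1 counts, was at 7.12 CPM, below the median of its group, and the log2 fold change without it was 2.11. Of 9 decidual markers tested, 8 were higher, beside 26.6% of all genes tested. Decidual markers summed to 164 to 253 CPM in mutant-labelled embryos, against 104 to 124 CPM in wild type. Several of these genes are also expressed in the embryo, and their part in the result was not tested. Nap1l5, a paternally expressed nucleosome-assembly family gene inside an intron of Herc3, stood at 3.71, 4.87 and 6.82 CPM, against 2.84, 2.33, 2.76 and 1.89 CPM in wild type. No mutant-labelled embryo reached down to wild type (log2 fold change 1.04, SE 0.17, adjusted p = 0.000132).

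Heart markers moved with the groups too: 15 of 20 were higher and 0 lower, beside 26.6% and 24.9% of all genes tested. The summed levels of heart markers were 2730 to 4770 CPM in mutant-labelled embryos, against 1780 to 2200 CPM in wild type. Plagl1, Asb4 and Dlk1 are expressed in mesodermal tissues, and the part of heart tissue in their rises was not tested. Yolk sac markers overlapped, at 1390 to 4980 CPM in mutant-labelled embryos, against 1340 to 3610 CPM in wild type, with 1 of 28 called. Red cell markers summed to 51.9 to 1760 CPM in mutant-labelled embryos, against 857 to 1410 CPM in wild type, with 2 of 16 lower and 0 higher. Of 11 posterior Hox genes, 1 was lower and 0 higher. Beside these counts stand 51.5% of all genes tested, called in either direction. With the yolk sac or the red cell score in the model, no called member changed direction; of the uncalled members, Phlda2 was at -0.13 with the yolk sac score (adjusted p = 0.836) and Ascl2 at -0.01 with the red cell score (adjusted p = 0.993), both opposite in sign to the fit without a score. Ppp1r9a (adjusted p = 0.0617) and Sgce (adjusted p = 0.12) lost their calls with the red cell score.

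Slc38a4 rose and Zdbf2, Zrsr1 and Impact, all paternally expressed, fell. Slc38a4, an amino acid transporter of placenta and liver, stood at 244, 284 and 323 CPM in the lowest, median and highest mutant-labelled embryos, against 201, 176, 222 and 183 CPM in wild type (log2 fold change 0.53, SE 0.08, adjusted p = 7.34e-05). Zdbf2 was lower in every mutant-labelled embryo, at 47.1, 64.4 and 80.1 CPM, against 94.5, 93, 93.1 and 91.1 CPM in wild type (log2 fold change -0.52, SE 0.09, adjusted p = 0.000384). Its lowest value was in embryo 6. Impact, an inhibitor of the GCN2 stress kinase, was at 86.9 to 110 CPM in mutant-labelled embryos, against 112 to 120 CPM in wild type, again without overlap (log2 fold change -0.25, SE 0.05, adjusted p = 0.00112).

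Zrsr1, a retrogene for a splicing factor, lies in an intron of Commd1 on the opposite strand. Zrsr1 stood at 9.55, 10.6 and 11.9 CPM in the lowest, median and highest mutant-labelled embryos, against 15.3, 15.5, 14.4 and 14.4 CPM in wild type (log2 fold change -0.47, SE 0.08, adjusted p = 0.000123). Its host gene Commd1, a regulator of copper transport and NF-kappaB, was higher at 60.8, 67.1 and 73.3 CPM, against 59.9, 55.1, 50.5 and 54.5 CPM in wild type (log2 fold change 0.28, SE 0.06, adjusted p = 0.00134). Neither gene overlapped between groups, and they moved apart: Zrsr1 counts were 0.145 to 0.186 of those of Commd1 in mutant-labelled embryos and 0.256 to 0.285 in wild type (log2 difference -0.75, exact permutation p = 0.00202, adjusted p = 0.00566).

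Mest and Copg2 are a second overlapping pair, and moved apart by less. Mest, a paternally expressed hydrolase-fold gene, stood at 2520, 2670 and 3000 CPM in the lowest, median and highest mutant-labelled embryos, against 2540, 2220, 2390 and 2300 CPM in wild type (log2 fold change 0.19, SE 0.05, adjusted p = 0.00513). Copg2, a coat protein of Golgi vesicles, was lower without overlap, at 84.3, 88.6 and 92.7 CPM, against 104, 96.2, 97.5 and 101 CPM in wild type (log2 fold change -0.17, SE 0.04, adjusted p = 0.00307). Mest counts were 27.8 to 34.5 times those of Copg2 in mutant-labelled embryos and 22.9 to 24.5 times in wild type (log2 difference 0.35, exact permutation p = 0.00202, adjusted p = 0.00566). Both changes are under 1.2-fold, and neither passed a test against that size.

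**Figure D3:**
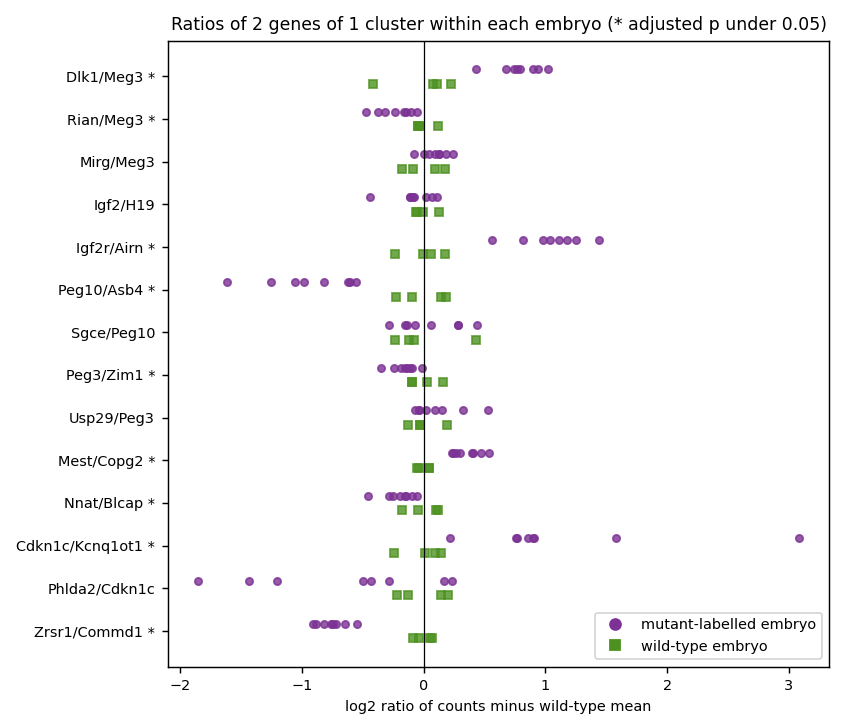
Log2 ratio of counts of the 2 genes of each of 14 within-cluster pairs in each embryo, minus the wild-type mean; circles are mutant-labelled and squares wild-type embryos, and a star marks an adjusted exact permutation p under 0.05. Dlk1/Meg3, Igf2r/Airn, Peg10/Asb4, Mest/Copg2 and Zrsr1/Commd1 separate the groups without overlap, with log2 differences of 0.78, 1.05, -0.94, 0.35 and -0.75, as do Rian/Meg3 (-0.23) and Cdkn1c/Kcnq1ot1 (1.13), whose gaps are narrow.

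In all, 9 of the 14 ratios passed 0.05. The 5 named above that reached an adjusted p of 0.00566 kept their call when any 1 embryo was left out, while the other 4 lost theirs in at least 1 omission. Ratios within an embryo do not depend on the scaling of library size.

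The Cdkn1c-Kcnq1ot1 cluster had 1 of its 7 members higher and 1 lower, beside 26.6% and 24.9% of all genes tested. Embryo 6 stood apart in Cdkn1c, Phlda2 and Slc22a18. Kcnq1ot1, the paternally expressed noncoding RNA that silences the paternal copies of its neighbours, stood at 4.41, 9.15 and 13.9 CPM in the lowest, median and highest mutant-labelled embryos, against 17.8, 10.6, 15.5 and 12.7 CPM in wild type. The groups overlapped, and the log2 fold change of -0.64 (SE 0.24, adjusted p = 0.0414) lost its call without any one of 8 embryos, with adjusted p up to 0.138 without wild-type embryo 1. With the GC and length trends of all genes removed, its log2 fold change was -0.15 (adjusted p = 0.379). The transcript has 3 near-identical copies elsewhere and overlaps Kcnq1, so its reads are uncertain.

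Cdkn1c, the maternally expressed cell cycle inhibitor p57, was at 645 CPM in embryo 6, 261 to 366 CPM in the rest of its group and 257, 195, 293 and 218 CPM in wild type. One embryo thus stood far above all others, and Cdkn1c was not called (log2 fold change 0.49, SE 0.25, adjusted p = 0.121); without embryo 6 the change was smaller and called (0.29, adjusted p = 0.0428). Phlda2, which restrains placental growth, was at 146 CPM in embryo 6, 15.9 to 61.3 CPM in the rest of its group and 45.5, 32.2, 62.7 and 48.5 CPM in wild type. Slc22a18, a transporter gene beside it, was at 7.53 CPM in embryo 6, 1.52 to 4.1 CPM in the others and 1.8 to 3.09 CPM in wild type. The fitted log2 fold change of Phlda2 was 0.07 with embryo 6 (edgeR adjusted p = 0.927) and -0.40 without it (adjusted p = 0.372). That of Slc22a18 was 0.30 with it (adjusted p = 0.554) and -0.03 without it (adjusted p = 0.935), so both turned in sign and neither was called.

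Embryo 6 also held the highest counts of other placental and decidual genes. Plac1 had 580 counts in it, 55 to 174 in the rest of that group and 75 to 190 in wild type, and Rhox9 had 51 counts, against at most 9 and 4 in those groups. Prl2c2 had 12 counts in embryo 6 and 0 in all other embryos, while Prl8a9, Psg21 and Ctsq were at 0 in every embryo. Summed over the 19 trophoblast list genes in the table, levels were 119 to 272 CPM in mutant-labelled embryos, with embryo 6 at 272, and 63.2 to 93.8 CPM in wild type. Most of this sum was Hand1, at 110 to 213 CPM in mutant-labelled embryos, against 51.8 to 78.1 CPM in wild type, a gene also expressed in heart and lateral mesoderm. Hand1 was the only one called of the 5 trophoblast genes tested, beside 51.5% of all genes tested. The part of trophoblast or decidual RNA in the values of Cdkn1c, Phlda2 and Slc22a18 was not tested.

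Among the remaining members of the cluster, Tssc4 was higher without overlap, at 70.0 to 93.3 CPM in mutant-labelled embryos, against 56.9 to 60.4 CPM in wild type (log2 fold change 0.43, SE 0.08, adjusted p = 0.000245). Cd81, a tetraspanin at 97.2 to 126 CPM in mutant-labelled embryos, against 117 to 125 CPM in wild type, and Ascl2, a trophoblast regulator at 0.245 to 1.56 CPM in mutant-labelled embryos, against 0.576 to 1.6 CPM in wild type, were not called. Cdkn1c counts were 19.8 to 145 times those of Kcnq1ot1 in mutant-labelled embryos and 14.4 to 18.9 times in wild type (log2 difference 1.13, exact permutation, adjusted p = 0.0444). Without embryo 6 the log2 difference was 0.85 (adjusted p = 0.00848). Leaving out mutant-labelled embryo 5 or any one wild-type embryo ended the call, with adjusted p of 0.0566 to 0.121.

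**Figure D4:**
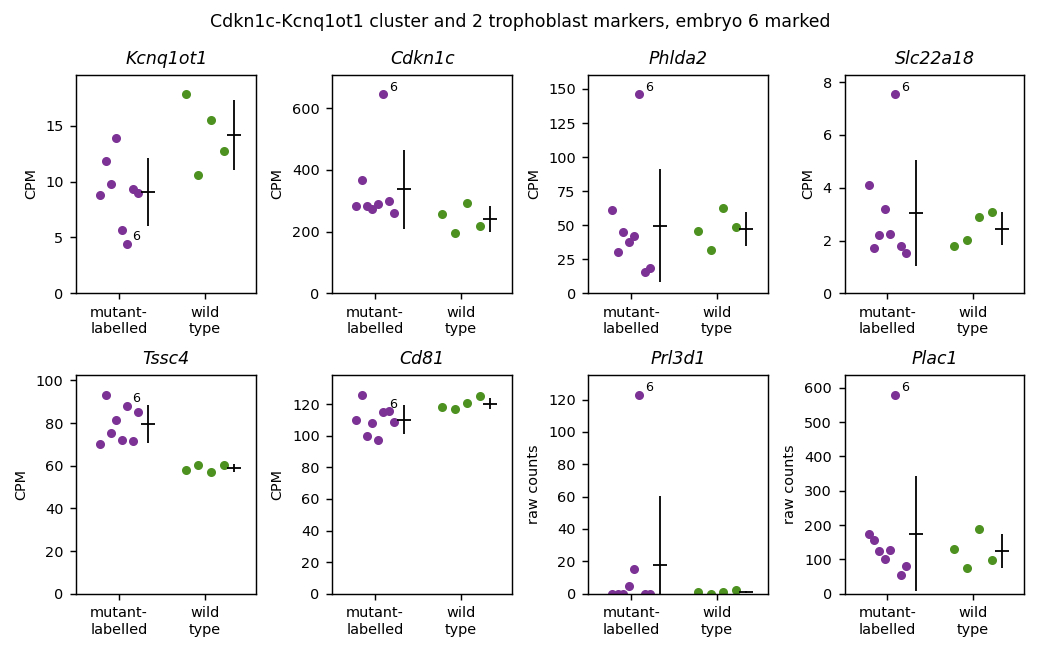
CPM of 6 members of the Cdkn1c-Kcnq1ot1 cluster and raw counts of 2 trophoblast markers in each embryo, mutant-labelled on the left and wild type on the right, with mean and SD as a bar and mutant-labelled embryo 6 marked. Embryo 6 is highest for Cdkn1c (645 CPM), Phlda2 (146 CPM), Slc22a18 (7.53 CPM), Prl3d1 (123 counts) and Plac1 (580 counts), and lowest for Kcnq1ot1 (4.41 CPM).

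The Peg3-Usp29 cluster on chromosome 7 had 1 of its 3 members called, beside 51.5% of all genes tested. The called member, Usp29, was higher. Peg3, a paternally expressed zinc-finger gene of growth and maternal behaviour, stood at 560, 833 and 1000 CPM in the lowest, median and highest mutant-labelled embryos, against 497, 665, 773 and 662 CPM in wild type. Zim1, its maternally expressed neighbour, stood at 15.6, 23.1 and 30.3 CPM, against 11.3, 18.1, 21 and 16.5 CPM in wild type. The groups overlapped for both, and neither was called (Peg3 0.31, SE 0.16, adjusted p = 0.121; Zim1 0.46, SE 0.19, adjusted p = 0.0515). Embryo 6 was the lowest mutant-labelled embryo for Peg3, Zim1 and Usp29, and without it both were called, at 0.37 (adjusted p = 0.0386) and 0.52 (adjusted p = 0.0194). Usp29, a deubiquitinase-family gene that shares a promoter region with Peg3, was called at 0.43 (SE 0.13, adjusted p = 0.0104), at 5.35 to 8.78 CPM in mutant-labelled embryos, against 4.87 to 6.51 CPM in wild type. The windows upstream of this divergent pair overlap, and hold the same 2 matches to TGTCA read on opposite strands, shown in capitals as above.
Peg3 promoter, chr7:6730420-6730669, minus strand: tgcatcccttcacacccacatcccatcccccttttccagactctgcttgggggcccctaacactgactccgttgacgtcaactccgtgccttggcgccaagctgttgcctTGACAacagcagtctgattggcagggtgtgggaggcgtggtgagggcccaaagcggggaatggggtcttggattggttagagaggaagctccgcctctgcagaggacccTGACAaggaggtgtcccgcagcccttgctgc
Usp29 promoter, chr7:6730333-6730582, plus strand: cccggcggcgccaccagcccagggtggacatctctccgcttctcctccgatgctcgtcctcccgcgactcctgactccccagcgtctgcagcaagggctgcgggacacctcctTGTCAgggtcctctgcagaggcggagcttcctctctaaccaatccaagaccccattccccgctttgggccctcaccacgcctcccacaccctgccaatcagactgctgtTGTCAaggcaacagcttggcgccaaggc
Peg3 counts were 30.7 to 38.9 times those of Zim1 in mutant-labelled embryos and 36.7 to 43.8 times in wild type, with overlap (log2 difference -0.16, exact permutation, adjusted p = 0.0471). That call ended on leaving out wild-type embryo 1 (adjusted p = 0.198) and in 7 other single omissions.

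Members on chromosome 2, which also holds Tgif2, showed small changes. Gnas, the stimulatory G-protein alpha subunit, was higher without overlap, at 1440 to 1670 CPM in mutant-labelled embryos, against 1220 to 1320 CPM in wild type (log2 fold change 0.29, SE 0.05, adjusted p = 9e-05). Nnat, a small membrane protein of neural tissue, stood at 222, 272 and 314 CPM in the lowest, median and highest mutant-labelled embryos, against 288, 259, 257 and 280 CPM in wild type, with full overlap and a log2 fold change of 0.01 (edgeR adjusted p = 0.893). Blcap, in whose intron Nnat lies, was at 43.1, 46.4 and 51.4 CPM, against 39.7, 39.7, 43.1 and 38.1 CPM in wild type (log2 fold change 0.21, SE 0.06, adjusted p = 0.00483); it has 1 near-identical copy elsewhere. Its call was lost when GC and length trends were removed (0.09, adjusted p = 0.193). Nnat counts were 4.92 to 6.5 times those of Blcap in mutant-labelled embryos and 5.97 to 7.35 times in wild type (log2 difference -0.20, exact permutation, adjusted p = 0.0471), a call lost on leaving out wild-type embryo 1 (adjusted p = 0.18) and in 9 other single omissions. Mcts2, a retrogene in H13, was at 13 to 16.9 CPM in mutant-labelled embryos, against 12.5 to 16.1 CPM in wild type, and was not called (-0.04, adjusted p = 0.741). Nnat, Blcap and Mcts2 lie within 10 Mb of Tgif2.

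The Snrpn-Ube3a cluster, whose human counterpart is altered in Prader-Willi and Angelman syndromes, had 1 gene higher and 1 lower among 5 tested. Over all genes tested, 26.6% were higher and 24.9% lower. Ndn, a MAGE-family growth suppressor of neurons, stood at 172, 184 and 200 CPM in the lowest, median and highest mutant-labelled embryos, against 158, 157, 162 and 163 CPM in wild type (log2 fold change 0.22, SE 0.05, adjusted p = 0.0025). Magel2, its MAGE-family neighbour, was lower at 7.11 to 14.4 CPM, against 15.4 to 19.4 CPM in wild type, without overlap (log2 fold change -0.42, SE 0.16, adjusted p = 0.037). Embryos 7 and 8 were lowest of all for Magel2, and its call was lost without any one of 5 embryos, with adjusted p up to 0.135 without wild-type embryo 1. Mkrn3 was at 7.76 to 10.4 CPM in mutant-labelled embryos, against 8.52 to 10 CPM in wild type, and Peg12 at 51 to 68.6 CPM in mutant-labelled embryos, against 54.5 to 71 CPM in wild type. The ubiquitin ligase gene Ube3a was at 48.8 to 81.6 CPM in mutant-labelled embryos, against 70.2 to 82.3 CPM in wild type. All 3 overlapped between groups and were not called, with log2 fold changes of 0.04, -0.01 and -0.18. Snrpn had 0 to 3 counts per embryo and the overlapping Snurf 0, so the table does not measure this transcript well. Rasgrf1, with 28 counts over the mutant-labelled embryos and 15 over wild type, and the potassium channel gene Kcnk9, with 4 and 8, were not tested either. Inpp5f, at 47.4 to 60.3 CPM in mutant-labelled embryos, against 56.6 to 59.1 CPM in wild type, was not called (-0.09, adjusted p = 0.231). Trappc9, at 31.4 to 35.7 CPM in mutant-labelled embryos, against 28.4 to 30 CPM in wild type, was slightly higher (0.20, adjusted p = 0.00552), a call lost when GC and length trends were removed (0.07, adjusted p = 0.262).

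**Figure D5:**
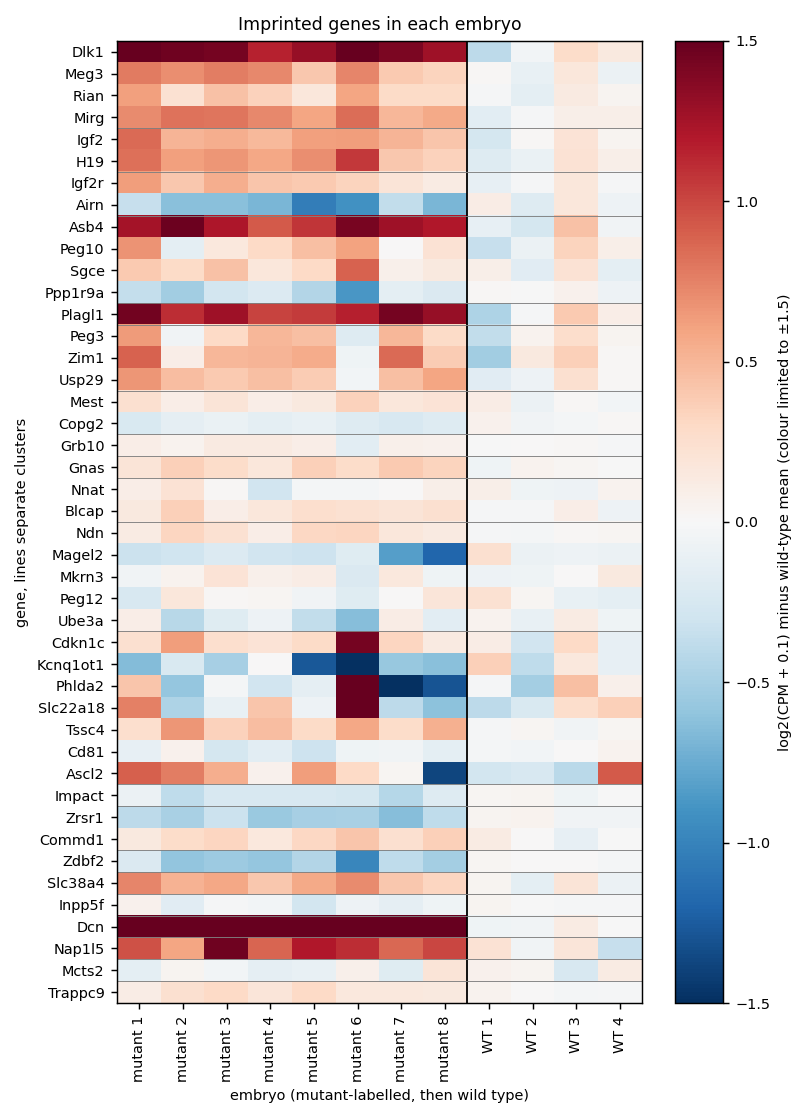
Log2 CPM of the 44 tested members minus the wild-type mean, 1 column per embryo with mutant-labelled embryos on the left and wild type (WT) on the right, lines between clusters, and colour limited to ±1.5. Dlk1, Asb4, Plagl1, Dcn and Nap1l5 are red in all 8 mutant-labelled embryos, and embryo 6 departs from its group in Cdkn1c, Phlda2 and Slc22a18.

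Embryos of one genotype also differed among themselves. The median coefficient of variation over the members was 11.5% among mutant-labelled embryos and 8.86% among wild-type embryos, beside 10.9% and 7.08% over all genes tested. Mutant-labelled embryo 1 was the highest of its group in 16 of the 44 members, and embryo 6 was the highest in 9 and the lowest in 9. Without embryo 6, 25 members were higher and 8 lower, beside 3896 and 3628 of all genes. Of 9 pairs of members correlated over the 8 mutant-labelled embryos, 0 passed by Pearson's r after adjustment and 2 had an unadjusted exact permutation p under 0.05. The pair Cdkn1c and Phlda2 gave r = 0.72 (exact permutation p = 0.0739, adjusted p = 0.133; rho 0.21, p = 0.619), and r = 0.09 without the 2 embryos farthest from the median of Cdkn1c.

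Genes that set or keep imprints were more often lower than higher. Of 20 tested, 4 were higher, 13 lower and 3 not called, beside the 24.9% of all genes that were lower, with a median log2 fold change of -0.32. Uhrf1, which brings DNA methyltransferase 1 to replicating DNA, averaged 297 ± 13.1 CPM in mutant-labelled embryos and 419 ± 16.6 CPM in wild type (log2 fold change -0.50, SE 0.04, adjusted p = 2.86e-07). Trim28, the corepressor recruited to imprinted control regions by ZFP57, fell by 0.34 on the log2 scale (SE 0.04, adjusted p = 6.81e-06), and Setdb1, its partner histone methyltransferase, by 0.35 (SE 0.04, adjusted p = 8.43e-06). The 4 that were higher include Zfp57 itself, which averaged 33 ± 2.55 CPM in mutant-labelled embryos and 23.4 ± 2.08 CPM in wild type (log2 fold change 0.50, SE 0.07, adjusted p = 6.08e-05). Tet2, an enzyme that oxidises methylated DNA, was higher by a log2 fold change of 1.26 (SE 0.14, edgeR adjusted p = 5.81e-06), the histone methyltransferase gene Ehmt2 by 0.34 (SE 0.05, adjusted p = 8.24e-05) and the DNA methyltransferase gene Dnmt3a by 0.23 (SE 0.05, adjusted p = 0.000949). Dnmt1 itself averaged 606 ± 43.8 CPM in mutant-labelled embryos and 580 ± 15.3 CPM in wild type and was not called (edgeR adjusted p = 0.341).

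From a further list of 36 imprinted genes, 30 were tested, with 9 higher, 3 lower and 18 not called, beside 26.6% higher and 24.9% lower over all genes, and a median log2 fold change of 0.17. With mutant-labelled embryo 2 and wild-type embryo 1 left out, 5 were higher and 1 lower, beside 3347 and 2995 of all genes. Cdh15, M-cadherin, averaged 6.08 ± 1.32 CPM in mutant-labelled embryos and 2.27 ± 0.368 CPM in wild type (log2 fold change 1.42, SE 0.19, adjusted p = 1.81e-05). Gatm, an enzyme of creatine synthesis, rose by a log2 fold change of 0.85 (SE 0.16, edgeR adjusted p = 0.000529), and Osbpl5, from the Cdkn1c-Kcnq1ot1 region, by 0.45 (SE 0.12, adjusted p = 0.00469). Dio3, the thyroid hormone deiodinase at the far end of the Dlk1-Meg3 cluster, averaged 7.16 ± 2.33 CPM in mutant-labelled embryos and 3.54 ± 0.923 CPM in wild type (log2 fold change 1.02, SE 0.27, adjusted p = 0.00653); it is also one of the decidual markers.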

How the data were processed

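RNA-seq of 12 single embryos was taken from the authors' deposited table of raw counts by gene symbol. The submitters' processing notes name FastQC, STAR, featureCounts, DESeq2 and the build mm9; no source used here gives their versions, the annotation, the strand setting or how multi-mapping reads were handled. Samples were grouped by the genotype label. The members and all other lists were chosen with earlier results of these data known.

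The main test was that of edgeR 4.0.16 in R 4.3.3 (filterByExpr by group, TMM scaling, robust quasi-likelihood F test of genotype, all 12 embryos, no covariate), with Benjamini-Hochberg adjustment over 14412 genes and a threshold of 0.05. Standard errors (SE) are the absolute log2 fold change over the square root of F. CPM and RPKM were computed from the counts, RPKM with the longest GENCODE M21 transcript. Ratios of 2 genes of a cluster were taken on counts plus 0.5 and tested by an exact permutation of embryos over all splits, with adjustment over 14 ratios; 2 further listed ratios hold Snrpn, which was not tested. Correlations used exact permutations of pairings.

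All 47 members are accounted for. Each wild-type value, with the lowest, median and highest mutant-labelled values, is given for members past 0.05 with at least 1.5-fold change. The same holds for the most abundant member by CPM of each cluster with 2 or more members tested, and for members of ratios that pass. For Cdkn1c the mutant-labelled values are that of embryo 6 and the range of the rest. Up to 4 genes are named from other lists. Genes named with embryo 6, and Igf1r, Grb10, Dnmt1, Zfp57, Ehmt2, Dnmt3a and Dio3, were chosen after their values were seen, as were the 2 alternatives on embryo 6 and Xist.

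On simulated counts for these 14412 genes, the genotype test recovered 54 of 81 genes changed by 1.5-fold, 47 of 58 by 2-fold and 60 of 61 by 4-fold, and 6 of 167 calls were unchanged genes. Far fewer genes were changed there than were called in the data (7423). The cutoff on the unadjusted p was therefore stricter in the simulation, and its rates do not carry over to the data. The chi-square per degree of freedom between libraries of a group was at least 3.89 over genes with 20 or more pooled counts, so no pair was within sampling noise. Replicate numbers are in accession order and do not pair samples. Symbols were matched to the RefSeq table of GRCm38.p6: 20683 directly, 2354 through a synonym and 247 not at all. Near-identical copies are other genes' GENCODE M21 transcripts that match over at least 200 bases at 95% identity or more (BLAST 2.17.0). Alternatives were other scalings, DESeq2 1.42.0, limma 3.58.1 with voom, other filters, embryos left out, covariates, a test against 1.2-fold and removal of GC and length trends.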

Additional observations from a re-analysis of the deposited data

Results flagged for a closer look

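In each group of embryos, the gap between the most extreme embryo and its nearest neighbour was compared with the range of the group by Dixon's test, for each of the 44 members tested. It passed the 95% critical value in 9 of 88 groups (10.2%), where chance gives about 1 in 20. Of these 9, 6 were values of mutant-labelled embryo 6. Cdkn1c was at 645 CPM in it (261 to 366 CPM in the rest of its group), Phlda2 at 146 CPM (15.9 to 61.3), Slc22a18 at 7.53 CPM (1.52 to 4.1) and Sgce at 74.5 CPM (42.3 to 54.8), all highest of their group. Usp29 was at 5.35 CPM in it (7.18 to 8.78 in the others) and Grb10 at 1310 CPM (1510 to 1600), both lowest. Igf2 was at 3960 CPM in mutant-labelled embryo 1, above 2920 to 3380 CPM in the others. Magel2 was at 19.4 CPM in wild-type embryo 1, above 15.4 to 15.5 CPM in the other wild-type embryos. Ascl2 was at 1.6 CPM in wild-type embryo 4, above 0.576 to 0.658 CPM in the others. The cause of these values was not tested.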

How the results depend on the processing

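No member called above and no ratio past 0.05 changed direction under any alternative run. Against a 1.2-fold change, 11 members were higher and 3 lower, beside 2079 and 1144 of all genes. Leaving out 1 embryo at a time gave 20 to 25 members higher and 6 to 9 lower, 16 to 19 above wild type without overlap and 7 to 8 below it, and 3369 to 3896 of all genes higher and 3107 to 3683 lower. Ratios past 0.05 numbered 5 to 8 in these omissions, with 5 without mutant-labelled embryo 5 and 5 without wild-type embryo 4, and 5 with mutant-labelled embryo 2 and wild-type embryo 1 left out together. In that last setting 3347 of all genes were higher and 2995 lower. The further imprinted genes gave 5 higher and 1 lower in it, posterior Hox genes 1 higher and 5 lower, and yolk sac markers 0 higher. With DESeq2, 2 trophoblast genes were higher and 1 heart gene was lower. Mutant-labelled embryo 6 and wild-type embryo 1 were left out together in a setting chosen after seeing the data. It gave 22 members higher and 6 lower, beside 3507 and 3133 of all genes. Xist level as a covariate, also chosen then, gave 21 and 6 members, beside 3764 and 3517 of all genes. Xist was at 0.0513 to 0.64 CPM in mutant-labelled embryos 3, 5 and 7 and at 0.0506 CPM in wild-type embryo 2. The other embryos of both groups had 275 to 609 CPM. The calls lost with this covariate were Magel2 (edgeR adjusted p = 0.0504) and Kcnq1ot1 (edgeR adjusted p = 0.0558).

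Of 29 called members, 14 kept their call in every setting run, which was 29 settings, or 28 for Igf2 and H19, which are among the 50 most abundant genes left out in 1 setting, and Kcnq1ot1, Sgce and Magel2 lost it most often. The median log2 fold change of all genes lay between -0.05 and 0.01 under the scalings tried and with GC and length trends removed. No paired analysis was possible because the labels give no shared replicate numbers. Low members such as Airn, Dcn, Nap1l5 and Ascl2 rest on few counts per embryo, and overlapping genes cannot be separated without a strand setting. The causes of the lost calls were not tested.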
